A study of Mus musculus with 6 samples.

Results

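The genes described here build the moving core of the cilium or carry cargo along it. They were compared between lungs of mice treated to delete Tmem100 and those of their controls. The genes were chosen by symbol: Dnah, Dnai, Dnali, Tekt, Rsph, Bbs or Ift followed by a digit, and Foxj1, Ccdc39, Ccdc113, Spag6, Spag16 and Tppp3. The platform annotation named 39 such probes for 30 genes, with none for Dnai and a digit, Spag6 or Spag16. Dnai1 was measured under its older symbol Dnaic1, which misses the rule as read here and is given separately below. All 39 had a detection p-value below 0.05 on at least 3 of the 6 arrays, so all 39 stood among the 13361 probes tested, out of 25697 on each array. They divide into 13 probes of 12 motile axoneme genes and 26 probes of 18 transport genes. The annotation covered only the 13261 probes of the authors' processed table, so probes of these families outside it are not named here. Nearest to the limit on detection was Bbs12, detected on 1 mutant and 2 control arrays.

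A motile cilium beats because dynein arms on its outer doublet microtubules slide the doublets past each other, while radial spokes and nexin links shape the stroke. Intraflagellar transport, or IFT, carries building blocks along every cilium, motile or not: IFT-B with kinesin outward and IFT-A with dynein back. The BBSome, an octameric coat named after Bardet-Biedl syndrome, rides on these trains and moves membrane proteins in and out of the cilium. In the lung, motile cilia belong to the multiciliated cells of the airways, which clear mucus, whereas single primary cilia occur on many other cell types.

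Total RNA of whole lungs was profiled on Illumina bead arrays, with 1 array per mouse. The 3 mutant mice were Tmem100 2loxP/2loxP;ROSA26 +/CreER, and the 3 control mice were Tmem100 2loxP/2loxP without CreER. Both groups were homozygous for the loxP-flanked allele and both were given tamoxifen intraperitoneally (2 doses, each 0.1 mg per g), with lungs taken 7 days later. CreER, a Cre recombinase switched on by tamoxifen, is driven here from ROSA26, a locus active in most cell types. Only mutants carried it, so an effect of CreER itself and one of losing Tmem100, a membrane protein of endothelial cells, cannot be told apart. The labels give no age, sex or strain.

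Between 12781 and 13046 probes were detected on mutant arrays and between 13354 and 13749 on control arrays. Precision is set by 3 mice in each group. Tmem100 itself had a normalized log2 intensity of 8.44, 9.43 and 9.51 in mutant mice, against 11.16, 15.36 and 10.69 in control mice. The groups did not overlap, but the difference of -3.28 ± 1.15 (SE) did not pass the threshold (limma, adjusted p = 0.0749). Without control mouse 2 it was -1.80 and passed (adjusted p = 0.0283). Where the Tmem100 probe lies relative to the deleted part is unknown here. The airway marker Scgb1a1 and the alveolar markers Sftpc and Ager were detected on all 6 arrays. Scgb1a1 lay at 15.95 to 15.99 in mutants and 15.97 to 15.99 in controls, at the top of the scale, where a difference could not be seen. Of 9 markers fixed for multiciliated cells, the 7 named on this array were detected on all 6 arrays, while Cfap126 and Ccdc153 are not named here.

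Ciliary genes differed in both directions between mutant and control lungs, and most did not pass the test. In limma's moderated test, 4 of the 39 probes rose, 2 fell and 33 did not pass an adjusted p of 0.05. That is 15.4% past the threshold, against 26.7% of all probes tested, of which 13.3% were higher and 13.5% lower. By limma the number of higher probes was 0 without mutant mouse 1 or control mouse 1 (4 and 7 at an unadjusted p under 0.05), 1 without mutant mouse 2 or control mouse 2, and 2 without control mouse 3. The number of lower probes was 1 without mutant mouse 2, mutant mouse 3 or control mouse 1. Counted by gene, with its brightest tested probe, 6 of 30 (20%) passed, against 27.2% of all 9383 named genes (12.7% higher and 14.5% lower). Motile axoneme genes had a median log2 difference of 0.23 and transport genes one of -0.03, beside 0.01 over all named genes. The groups did not overlap for 12 of the 39 probes, 9 with all mutants above all controls and 3 with all below, against 47.5% of all probes (24.6% above and 23.0% below). In bulk lung, fewer cells of a type and less RNA per cell cannot be told apart.

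**Figure D1:**
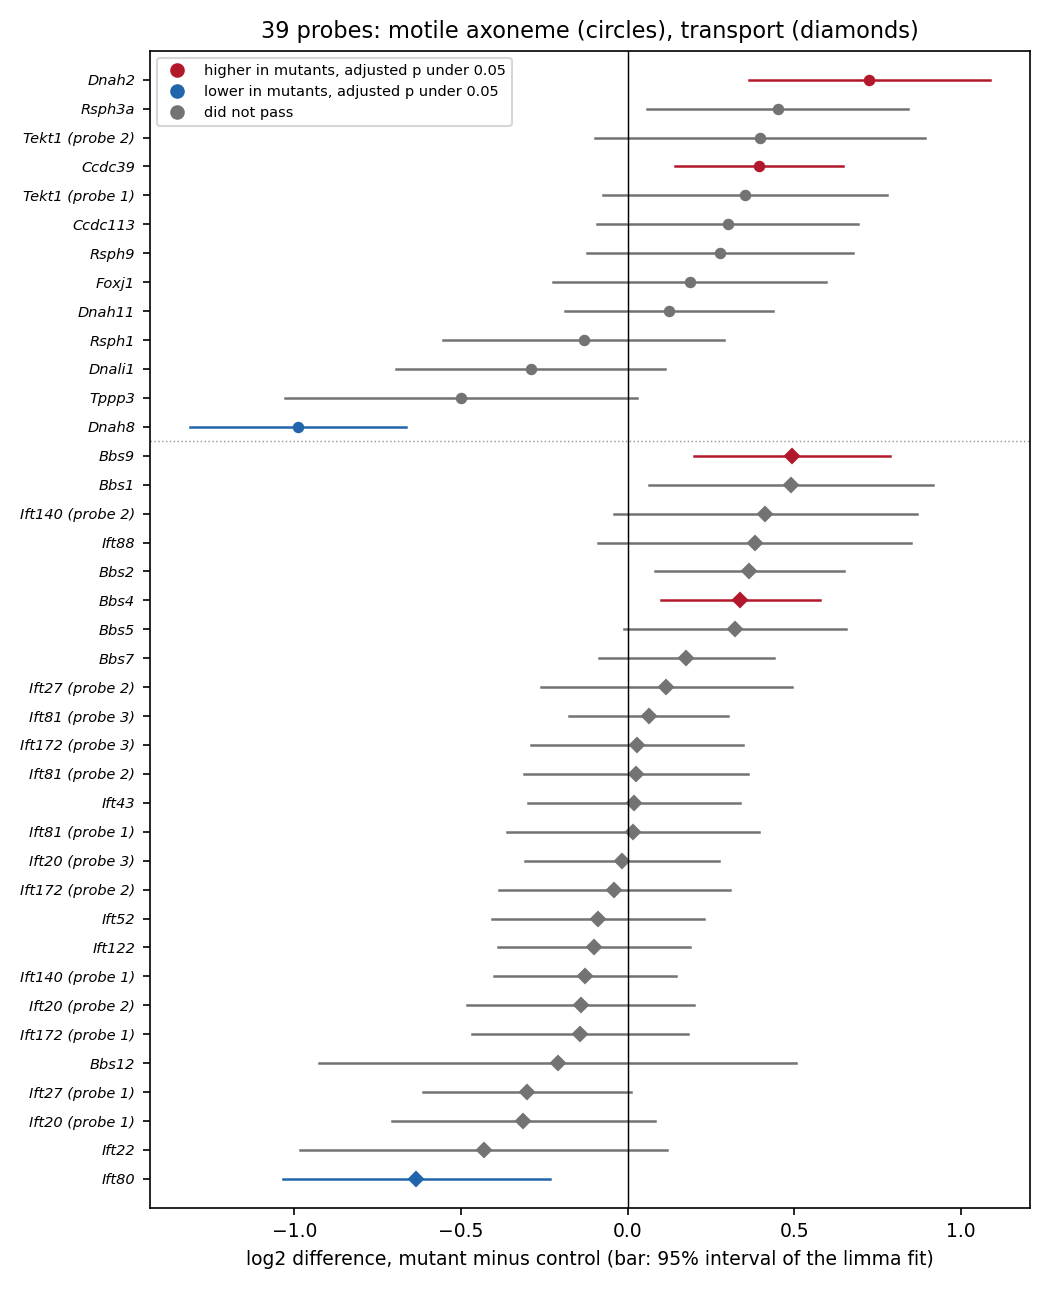
Log2 difference (mutant minus control, horizontal axis) of the 39 probes, motile axoneme genes above the dotted line and transport genes below it, each group sorted by size; points are limma estimates and bars their 95% intervals. Dnah2, Ccdc39, Bbs9 and Bbs4 passed the test as higher in mutants, Dnah8 and Ift80 as lower, and most bars cross 0.

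Among the 12 motile axoneme genes, Dnah2 and Ccdc39 rose in mutant lungs, Dnah8 fell, and the other 9 did not pass. That is 25% past the threshold, close to the 27.2% of all named genes. The size of a typical difference was 0.35 on the log2 scale (median without sign), against 0.31 over all named genes. All mutants lay above all controls for 3 of the 12 genes and below them for 1. Over all named genes, 49.1% did not overlap, 24.6% upward and 24.5% downward.

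Among the dynein heavy chains, the motors of the axoneme, Dnah8 and Dnah2 passed in opposite directions. Dnah8, an outer arm heavy chain best known from the sperm flagellum, had log2 intensities of 7.02, 7.18 and 6.76 in mutant mice 1, 2 and 3, against 7.91, 8.01 and 8.01 in control mice 1, 2 and 3. Every mutant lay below every control, and Dnah8 fell by 0.99 ± 0.14 on the log2 scale, to a level 1.99-fold lower (limma, adjusted p = 0.00528). Before any correction its probe read 390.8, 403.6 and 372.4 intensity units in mutants, against 604.2, 544.8 and 525.2 in controls. Without background correction the log2 difference of Dnah8 shrank to -0.39 and still passed, as it did under each of the 15 alternatives tried.

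Dnah2, a heavy chain of the inner arms, showed the reverse pattern. Its log2 intensity was 8.38, 8.07 and 8.24 in mutants, against 7.44, 7.33 and 7.75 in controls. The groups did not overlap, and Dnah2 was 1.65-fold higher in mutants (log2 0.73 ± 0.15, limma, adjusted p = 0.0158). The call was lost without mutant mouse 1, control mouse 1 or control mouse 2, with an adjusted p of at most 0.0619, and without background correction the log2 difference was 0.33. Dnah11, an outer arm heavy chain mutated in human primary ciliary dyskinesia, differed by 0.12 ± 0.13 and did not pass. Dnali1, a light intermediate chain of the inner arms, differed by -0.29 ± 0.17 and did not pass either.

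Ccdc39 and its partner Ccdc40 form the ruler that sets the spacing of dynein arms and spokes along the doublets. Ccdc39 had log2 intensities of 8.12, 7.99 and 7.98 in mutants, against 7.67, 7.65 and 7.58 in controls. After normalization the 2 groups were tight and apart, and Ccdc39 was 1.32-fold higher in mutants (log2 0.40 ± 0.11, limma, adjusted p = 0.0346). Before any correction the groups overlapped. The probe read 527.2, 502.6 and 494.4 intensity units in mutants, against 552.1, 488.4 and 460.6 in controls. The call held when mutant mouse 3 was left out and was lost when any other mouse was, at an adjusted p of up to 0.113. Without background correction the difference of Ccdc39 was 0.18 and did not pass. It was 0.27 with median scaling and 0.15 with the deposited values, and passed with neither (limma, adjusted p = 0.186 and 0.185). Ccdc113, another coiled-coil protein of cilia, had a log2 difference of 0.30 ± 0.17 that did not pass.

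Structural parts of the axoneme gave values on both sides of 0, none past the threshold. Rsph3a, a radial spoke protein, had log2 intensities of 9.96, 9.83 and 9.74 in mutants, against 9.63, 9.47 and 9.08 in controls. Its groups were apart, yet the difference of 0.45 ± 0.17 missed the threshold (limma, adjusted p = 0.0858), and the mouse genome holds a near-identical copy, Rsph3b, that its probe may not separate. The spoke head genes Rsph9 and Rsph1 had log2 differences of 0.28 ± 0.17 and -0.13 ± 0.18, with overlapping groups. Tekt1, a filament protein inside the doublets, was read by a pair of probes with log2 differences of 0.40 ± 0.21 and 0.35 ± 0.18. Both Tekt1 probes put mutant mouse 1 above all other mice, at 10.80 and 10.15.

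Foxj1, the transcription factor that switches on the motile cilium program, did not differ beyond the spread between mice. Its log2 intensity was 6.98, 6.69 and 6.51 in mutants, against 6.33, 6.79 and 6.50 in controls, a difference of 0.19 ± 0.17 whose 95% interval reached from -0.22 to 0.60. Tppp3, a tubulin-binding protein abundant in airway ciliated cells, had 11.72, 11.83 and 11.35 in mutants, against 12.27, 11.70 and 12.43 in controls. Control mouse 2 fell among the mutants, and the Tppp3 difference of -0.50 ± 0.22 did not pass (limma, adjusted p = 0.138). Without control mouse 2 it was -0.72 and passed (adjusted p = 0.0493, with a range of 0.0493 to 0.312 over the alternatives).

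**Figure D2:**
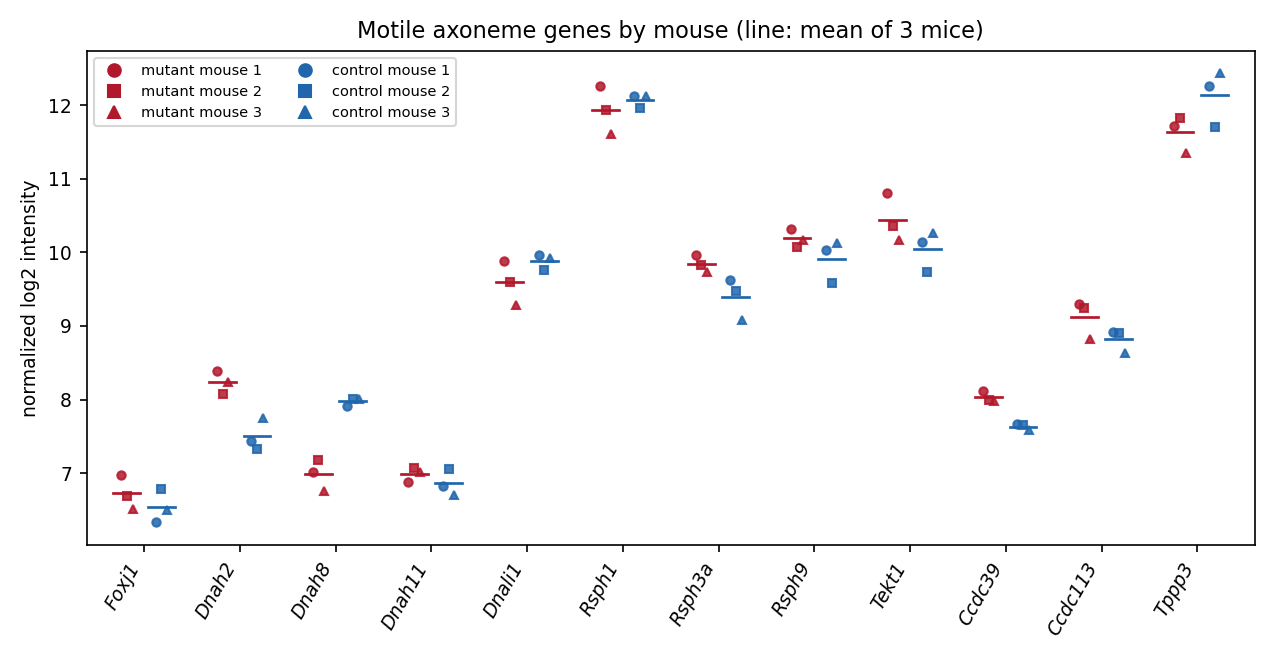
Normalized log2 intensity (vertical axis) of the 12 motile axoneme genes in each mouse, mutants left of controls, brightest probe per gene; lines are means of 3 mice. Dnah8 lies lower in all 3 mutants, Dnah2, Ccdc39 and Rsph3a lie higher, and the groups of the other 8 genes overlap.

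The 18 transport genes comprise 11 IFT genes, 6 BBSome genes and Bbs12. Bbs9 and Bbs4 rose, Ift80 fell and 15 did not pass, so 16.7% passed, against 27.2% of all named genes. Without sign their median log2 difference was 0.26. Of the 18, all mutants lay above all controls for 6 genes, which are the 6 BBSome genes, and below for 2, Ift80 and Ift27. Over all named genes, 24.6% lay above and 24.5% below in this way.

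Each of the 6 BBSome genes of the symbol rule was higher in every mutant than in any control, though only 2 passed the test. Over all named genes the shares were 24.6% apart upward and 12.7% called higher, and nothing particular to the BBSome is read from its count. Ttc8, a further BBSome subunit outside the rule, did not follow, at -0.21 with overlapping groups. Bbs9 had log2 intensities of 8.95, 8.78 and 8.66 in mutants, against 8.23, 8.27 and 8.41 in controls, and was 1.41-fold higher in mutants (log2 0.49 ± 0.12, limma, adjusted p = 0.0280). Bbs4 had 9.96, 9.93 and 9.97 in mutants, against 9.65, 9.63 and 9.57 in controls, and was 1.26-fold higher in mutants (log2 0.34 ± 0.10, limma, adjusted p = 0.0474). In both genes the lowest mutant lay above the highest control. Leaving out any 1 mouse ended the call of Bbs4, at an adjusted p of up to 0.123. Leaving out mutant mouse 1 or 2 or control mouse 1 or 2 ended that of Bbs9, at up to 0.0995. Without background correction the difference of Bbs9 was 0.28 and still passed.

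The other BBSome subunits of the symbol rule lay on the same side with smaller or less even differences. Bbs2 had log2 intensities of 9.15, 8.91 and 9.05 in mutants, against 8.78, 8.57 and 8.67 in controls, a difference of 0.37 ± 0.12 (limma, adjusted p = 0.0621). Bbs1 had 6.74, 6.94 and 6.66 in mutants, against 6.03, 6.64 and 6.20 in controls, a difference of 0.49 ± 0.18 (limma, adjusted p = 0.0848). Control mouse 2 came within reach of the mutants for Bbs1, and without it the difference was 0.67 with an adjusted p of 0.0347 (0.0184 to 0.312 over the alternatives).

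Bbs5 and Bbs7 completed the group. Bbs5 had 8.81, 8.55 and 8.63 in mutants, against 8.49, 8.40 and 8.13 in controls, a difference of 0.32 ± 0.14 that did not pass. Bbs7 had 9.79, 9.94 and 9.80 in mutants, against 9.76, 9.63 and 9.61 in controls, a difference of 0.18 ± 0.11 that did not pass. In Bbs7 the gap between the groups was narrow. Over the 6 genes the median was 0.35, and those of the 6 that were measured had positive differences under each alternative. The strictest filter on detection left out Bbs1, so 5 were measured there. Median scaling in place of quantile normalization left the groups apart for 2 of the 6, and neither Bbs9 (0.39) nor Bbs4 (0.29) passed there. Ttc8, a further subunit measured outside the symbol rule and named here after its value was seen, did not follow: its difference was -0.21 with overlapping groups.

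Bbs12 and Mkks belong to a chaperonin-like complex that helps to assemble the BBSome. Bbs12 was close to background, with a log2 difference of -0.21 ± 0.30 and no fixed sign across the alternatives. Mkks, from a further list, had log2 intensities of 7.55, 7.84 and 7.85 in mutants, against 8.46, 8.44 and 8.37 in controls. It fell by 0.68 ± 0.13 (limma, adjusted p = 0.0106), and the call held with any mouse left out and, at -0.33, without background correction.

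Ciliary promoters often carry an X-box, the element bound by RFX transcription factors. Of the 6 BBSome promoters, those of Bbs4 and Bbs9 are shown because these genes passed the test, and that of Bbs7 because it held the exact element. RefSeq promoters (assembly GRCm38.p6, 250 bases before to 50 after the start) were found for 24 of the 30 genes, and not used here for Foxj1, Ift122, Ift80, Ift81, Rsph1 and Tppp3. The X-box was searched on both strands as GTTNCC, any pair of bases and then GGNAAC, with at most 1 mismatch at its defined letters (N stands for any base). Capitals mark the match, and Bbs9 had none.
Bbs4, chr9:59353459-59353758, minus strand: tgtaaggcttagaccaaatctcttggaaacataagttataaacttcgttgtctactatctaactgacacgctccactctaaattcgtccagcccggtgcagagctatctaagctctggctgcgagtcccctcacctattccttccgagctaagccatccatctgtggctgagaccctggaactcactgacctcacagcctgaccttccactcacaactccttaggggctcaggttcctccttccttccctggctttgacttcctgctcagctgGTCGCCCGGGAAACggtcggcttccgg
Bbs7, chr3:36613340-36613639, minus strand: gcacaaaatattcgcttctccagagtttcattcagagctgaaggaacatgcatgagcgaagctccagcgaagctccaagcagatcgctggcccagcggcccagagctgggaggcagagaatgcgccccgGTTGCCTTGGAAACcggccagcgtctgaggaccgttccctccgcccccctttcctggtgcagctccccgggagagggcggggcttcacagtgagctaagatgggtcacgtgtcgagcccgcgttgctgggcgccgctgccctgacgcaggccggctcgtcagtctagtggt
Bbs9, chr9:22475465-22475764, plus strand: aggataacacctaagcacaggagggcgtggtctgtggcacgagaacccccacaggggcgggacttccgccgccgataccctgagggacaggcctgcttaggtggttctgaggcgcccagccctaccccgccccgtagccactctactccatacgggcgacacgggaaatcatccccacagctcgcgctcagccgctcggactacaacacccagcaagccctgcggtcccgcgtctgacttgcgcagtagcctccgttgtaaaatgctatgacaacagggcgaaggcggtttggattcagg

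The match of Bbs7 was exact and began at base -121 relative to the start, while that of Bbs4 began at base 24 with 1 mismatch. Matches in other promoters, each with 1 mismatch, were these, and for Ift22 the first of its 2 is printed.
Bbs1: GTTGCCAAGGCGAC
Ccdc113: GTTGTCTAGGCAAC
Ift22: GTTTCCTGGGCTAC

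In all, 5 of the 24 genes (20.8%) held a match, against 2.89% of 27025 genes with a promoter in the same table. Within the BBSome it was 3 of 6 genes. Bbs4 passed and holds one, Bbs9 passed and holds none, and Bbs7 holds the exact element and did not pass. Of the genes that changed in the motile group, Dnah2, Dnah8 and Ccdc39 held no match in this window. The shorter motif GTTNCC, which every exact X-box contains, was present in 20 of the 24 genes (83.3%) against 48.8% of all. The forkhead core TAAACA was present in 5 of the 24 (20.8%) against 15.1%, and its matches did not overlap an X-box match.

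Of the 11 IFT genes, Ift80 alone passed the test. Ift80, a subunit of IFT-B, had log2 intensities of 7.05, 6.50 and 6.60 in mutants, against 7.47, 7.37 and 7.21 in controls. The groups were apart by a small gap between mutant mouse 1 and control mouse 3, and Ift80 fell by 0.63 ± 0.17, to a level 1.55-fold lower (limma, adjusted p = 0.0339). Its probe read 393.1, 355.8 and 363.4 intensity units in mutants, against 515.9, 453.5 and 418.1 in controls, before any correction. Without background correction the log2 difference was -0.20 and did not pass. The call was also lost without mutant mouse 2 or 3 or control mouse 1 or 2, at an adjusted p of up to 0.112.

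Of the 8 IFT-B genes, 6 had negative differences and the median was -0.14. Ift27, a small GTPase of the complex, had log2 intensities of 10.58, 10.54 and 10.22 in mutants, against 10.80, 10.71 and 10.74 in controls at its brighter probe. That difference of -0.30 ± 0.13 did not pass, and a second probe of Ift27 gave 0.12 ± 0.16. Ift22, another GTPase-like subunit, differed by -0.43 ± 0.23, with mutant mouse 3 lowest at 6.76. Ift88, which is required for building cilia in mice, differed by 0.38 ± 0.20 and, of the mice left out in turn, passed without mutant mouse 3, at 0.57 (adjusted p = 0.0484, with 0.0250 to 0.440 over the alternatives).

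The remaining IFT-B genes had overlapping groups. Their brightest probes gave log2 differences of -0.14 ± 0.14 for Ift20, -0.09 ± 0.13 for Ift52, 0.06 ± 0.10 for Ift81 and -0.14 ± 0.14 for Ift172. For Ift81 the 95% interval ran from -0.18 to 0.30, and for Ift172 from -0.47 to 0.18. Ift20, Ift81 and Ift172 were each read by 3 probes, and none of these passed. Limma called 0 of the 3 IFT-A genes, and 0 had an unadjusted p under 0.05. Ift43, Ift122 and Ift140 had log2 differences of 0.02 ± 0.13, -0.10 ± 0.12 and -0.13 ± 0.12, although a second, dimmer probe of Ift140 gave 0.41 ± 0.19.

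**Figure D3:**
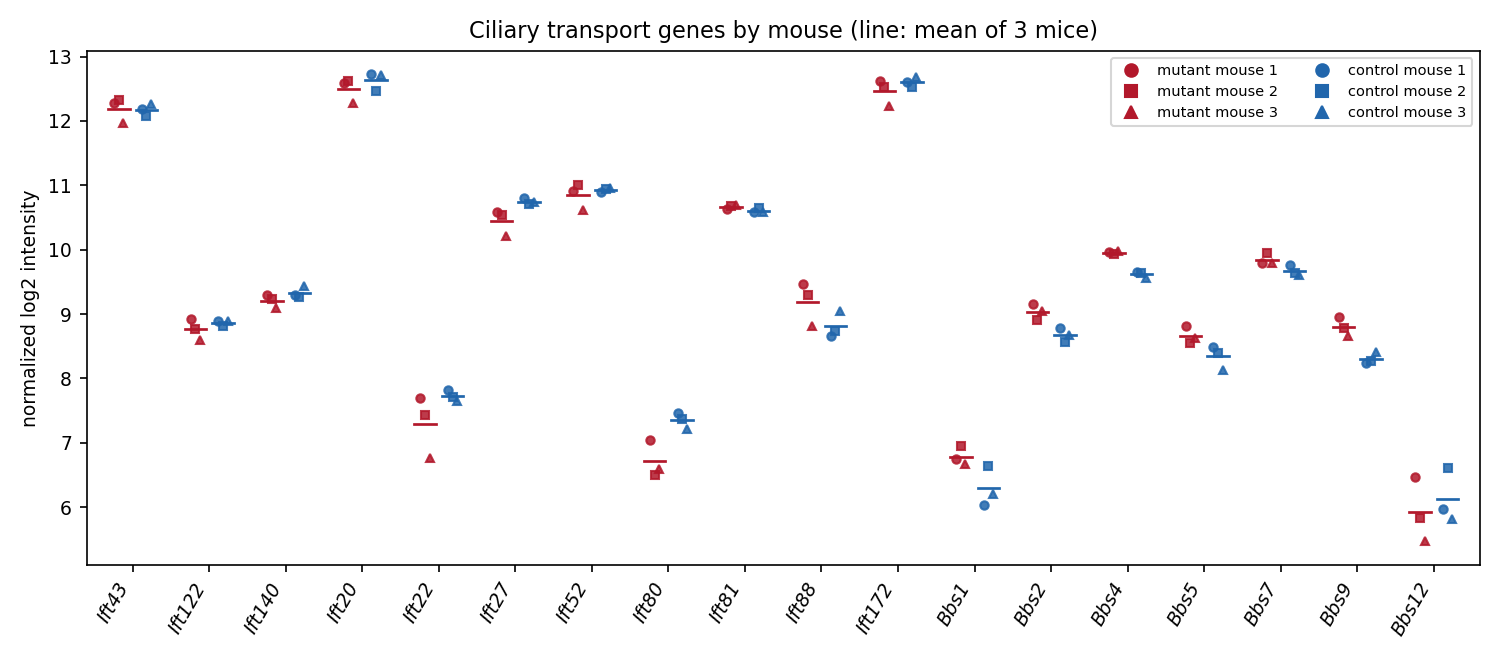
Normalized log2 intensity (vertical axis) of the 18 transport genes in each mouse, mutants left of controls, brightest probe per gene; lines are means of 3 mice. All 3 mutants lie above all 3 controls for Bbs1, Bbs2, Bbs4, Bbs5, Bbs7 and Bbs9 and below them for Ift27 and Ift80.

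Within the mutant group the mice kept a similar order across many ciliary genes. Mutant mouse 1 was the highest mutant for 9 of 12 motile axoneme genes and 11 of 18 transport genes, against 31.0% of all named genes. Mutant mouse 3 was the lowest mutant for 9 of 12 and 12 of 18, against 42.4%. The mean log2 intensity over the 12 motile axoneme genes was 9.30, 9.16 and 8.97 in mutant mice 1, 2 and 3, against 9.10, 8.99 and 9.09 in control mice 1, 2 and 3. Over the 18 transport genes it was 9.55, 9.43 and 9.23 in mutants, against 9.38, 9.39 and 9.37 in controls. Mutant mice 1 and 3 thus lay on either side of the controls for both sets. The means differed by 0.08 for motile axoneme genes and by 0.03 for transport genes, whose median has the opposite sign. Without mutant mouse 3 the medians were 0.29 for motile axoneme genes and 0.04 for transport genes.

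Airway cell markers ordered the mutants in part the same way. Over 19 of 25 listed club and goblet cell genes, the mean log2 intensity was 11.88, 11.85 and 11.30 in mutants, against 11.99, 11.81 and 11.85 in controls, and mutant mouse 3 was the lowest mutant for 15 of them. Over 14 alveolar type 2 cell genes it was 13.26, 13.38 and 12.91 in mutants, against 13.42, 13.11 and 13.41 in controls, with mutant mouse 3 lowest for all 14. The part of these cells in the ciliary values was not tested. The basal cell keratin Krt14 read 6.26, 7.66 and 6.30 in mutants, against 6.80, 7.57 and 11.94 in controls, so control mouse 3 stood apart.

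**Figure D4:**
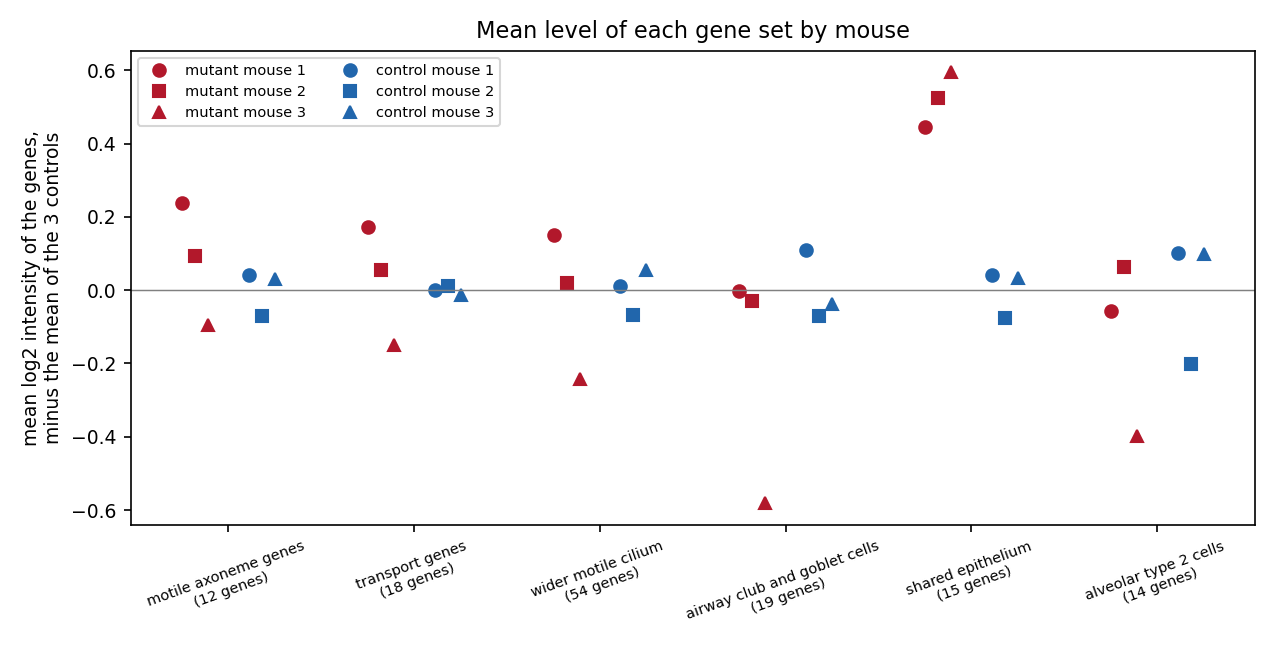
Mean log2 intensity of each gene set in each mouse (vertical axis, minus the mean of the 3 controls), mutants left of controls, for the 6 sets drawn. Mutant mouse 1 lies above and mutant mouse 3 below the other mice for motile axoneme genes, transport genes and the wider motile cilium, mutant mouse 3 is also lowest for club and goblet and alveolar type 2 genes, and all 3 mutants lie above all 3 controls for shared epithelium.

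Ciliary genes outside the symbol rule gave few calls. Of 54 measured genes of the motile cilium (141 listed), 1 rose and 4 fell, 9.26% in all, against 27.2% of all named genes. The median was 0.01. Spef1, a microtubule-bundling protein of the central apparatus, had log2 intensities of 7.03, 7.13 and 7.15 in mutants, against 8.13, 8.03 and 8.02 in controls. It fell by 0.96 ± 0.11 (limma, adjusted p = 0.00349), and the call held with any mouse left out and, at -0.39, without background correction. Mns1, a protein inside the doublets, fell by 0.71 ± 0.12 and likewise held. Tuba1a, an alpha-tubulin not specific to cilia, fell by 1.08 ± 0.26, a call that held only without control mouse 3. Cfap206, which helps to dock a radial spoke, rose by 0.83 ± 0.17 and was lost without control mouse 1. Capsl, a calcium-binding protein named after its value was seen, fell by 0.60 ± 0.11. Mutant mouse 3 was the lowest mutant for 36 of the 54 genes and mutant mouse 1 the highest for 37.

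Further transport genes were read from other lists. Of 9 further IFT and motor genes (21 listed), only Kif3c, a kinesin subunit, passed, which is 11.1% against 27.2% of all named genes. Kif3c fell by 0.51 ± 0.10 (limma, adjusted p = 0.0143), a call lost without control mouse 1. The transition zone is the gate at the base of the cilium. Of 22 genes of it and of the BBSome's surroundings (40 listed), 4 fell and 1 rose, 22.7% against 27.2% of all named genes. Besides Mkks these were Tmem237 and B9d1, of the transition zone, which fell by 0.82 ± 0.17 and 0.74 ± 0.17. Pde6d, a carrier of lipid-modified proteins, fell by 0.44 ± 0.13, and Nphp4 of the transition zone, named after its value was seen, was 1.35-fold higher. Each of the calls of Pde6d and Nphp4 held with only 1 of the 6 mice left out, control mouse 3 for Pde6d and mutant mouse 3 for Nphp4. Both were also lost with median scaling, the deposited values and no filter, and that of Nphp4 with a robust variance trend. Without control mouse 1 only 1 gene of this list still passed as lower. The median of the list was 0.02.

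Among 13 measured regulators of ciliogenesis (27 listed), 1 gene rose and 1 fell, 15.4% in all, against 27.2% of all named genes. Sass6, of the centriole cartwheel, was detected on no mutant array and on all control arrays. Its level was at least 1.37-fold lower in mutants (limma, adjusted p = 0.00628). Sass6 entered the test only through the control arrays, so no weight is put on its p-value. Its call was lost with the deposited values, at -0.23. Cep63, of centriole duplication, rose by 0.63 ± 0.14, a call lost without mutant mouse 2, control mouse 1 or control mouse 3 and, at 0.20, without background correction. The median was 0.14.

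Hedgehog signalling, which in mammals runs through the primary cilium, was represented by 6 measured genes of 18. Of these, 2 fell (33.3%, against 14.5% of all named genes called lower) and 4 did not pass. The median of the 6 was -0.54, beside 0.01 over all named genes. Hhip, a Hedgehog-binding inhibitor and target gene, had log2 intensities of 7.08, 6.79 and 7.15 in mutants, against 8.39, 8.24 and 7.71 in controls. It fell by 1.10 ± 0.20 (limma, adjusted p = 0.0102), and the call held with any mouse left out and, at -0.45, without background correction. Smo, the transducer that enters the cilium, fell by 0.62 ± 0.16, a call that held only without control mouse 3. The other 4 are named after their values were seen. Dhh and Evc had differences of -0.58 ± 0.18 and -0.49 ± 0.20, with all mutants below all controls. Evc2 and Shh had differences of 0.04 ± 0.15 and -0.02 ± 0.12, with overlapping groups.

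Markers of the cells that could carry these cilia are given for comparison. Of the 19 club and goblet cell genes, Cldn10 rose by 0.51 ± 0.12 and Tff2, a secreted trefoil peptide, fell by 2.59 ± 0.45, with 17 not past. The Cldn10 call held only without mutant mouse 3. Of 5 basal cell genes (10 listed), Bcam fell by 0.60 ± 0.14. Of 14 alveolar type 2 genes Cxcl15 fell by 0.81 ± 0.20, and of 9 alveolar type 1 genes (12 listed) Igfbp2 and Vegfa fell, by 0.95 ± 0.28 and 0.46 ± 0.12. Leaving out control mouse 1, among others, ended the calls of Bcam, Cxcl15, Igfbp2 and Vegfa. Of club and goblet genes 10.5% passed, of basal genes 20%, of alveolar type 2 genes 7.14% and of alveolar type 1 genes 22.2%. Over all named genes the share was 27.2%.

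Genes shared by lung epithelia rose in part. Of 15 measured (19 listed), 7 passed as higher, which is 46.7%, against 12.7% of all named genes. The median was 0.50, beside 0.01 over all named genes, and 14 of the 15 differences were positive. Among the 8 not past are Cdh1, Nkx2-1 and Spint2, named after their values were seen. They had differences of 0.10 ± 0.13, 0.09 ± 0.20 and -0.39 ± 0.35, with overlapping groups. This list, like the others, was chosen with earlier results of these data known. Cldn4, a tight junction protein, had log2 intensities of 9.24, 9.03 and 9.90 in mutants, against 7.07, 6.79 and 7.45 in controls, and was 4.88-fold higher in mutants (limma, adjusted p = 0.00364). Without background correction the log2 difference of Cldn4 was 1.19, against 2.29, and still passed. The keratins Krt18, Krt19 and Krt8 rose by 1.10 ± 0.14, 0.78 ± 0.18 and 0.70 ± 0.13. The count was 3 with control mouse 1, control mouse 2 or mutant mouse 2 left out, 4 in the absence of mutant mouse 3, and 5 in that of mutant mouse 1 or control mouse 3. The mean level of these genes was 9.62 to 9.77 in mutants and 9.10 to 9.21 in controls, and its part in the ciliary values was not tested.

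Of 8 mesothelial genes (9 listed), 4 fell (50%, against 14.5% of all named genes called lower), and the other 4 did not pass. Among these, named after their values were seen, Krt7 had a difference of 0.44 with all mutants above all controls, and Msln one of 0.06 with overlapping groups. Upk3b had 10.72, 11.54 and 10.59 in mutants, against 12.30, 12.84 and 12.33 in controls, and fell by 1.54 ± 0.28. Upk1b and Wt1 fell by 0.70 ± 0.18 and 0.77 ± 0.23 (limma, adjusted p = 0.0301 and 0.0454). With 1 mouse left out, the Wt1 call held only without mutant mouse 3. That of Upk1b held only without mutant mouse 2 or control mouse 3. Both were lost with the deposited values, and that of Wt1 also with no filter and with the replicate number as a block. Lrrn4, detected on no mutant array, was at least 1.52-fold lower in mutants. It entered the test only through the control arrays, so no weight is put on its call among the 4. The count was 2 without control mouse 1, control mouse 2 or mutant mouse 1. Only 2 of 13 germ cell genes were measured, and Acr, an acrosomal protease, was 2.91-fold higher in mutants (limma, adjusted p = 0.00741, log2 1.54, or 0.70 without background correction). Hspa1l, the other and named after its value was seen, had a difference of -0.39 ± 0.18 that did not pass, and Prm1, Prm2 and Tnp1 are not named here.

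Related axonemal genes whose symbols miss the rule are given after their values were seen. Dnaic1 is the older symbol of Dnai1, an outer arm dynein intermediate chain. At its brighter probe Dnaic1 had log2 intensities of 8.80, 8.73 and 8.96 in mutants, against 9.43, 9.09 and 9.51 in controls. It fell by 0.51 ± 0.15 (limma, adjusted p = 0.0416), lost without mutant mouse 1 or 2 or control mouse 1 or 3, while its second probe gave -0.29 ± 0.18 and did not pass. Spag6l, of the central apparatus, had differences of -0.35 ± 0.19 and -0.56 ± 0.22 at its pair of probes, neither past the threshold. With Dnaic1 and Spag6l counted, 3 ciliary probes fell and the median of the motile axoneme genes was 0.16.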

How the data were processed

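Per the labels' protocols, lung RNA (550 ng per mouse) was amplified, biotin-labelled and hybridised to Illumina bead arrays. The deposited table used for every main result gives, per the file headers, an unnormalized intensity and a detection p-value for each probe and array. The submitters' processing notes name GenomeStudio (2009.2) and R (2.4.1). The authors' deposited log2 values, quantile normalized, hold the same values for mutant mice 1 and 2 at all 13261 probes, so they served only as an alternative, with 5 distinct arrays. The sources used here do not give chip, scan or array build.

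Intensities were background corrected, quantile normalized and put on the log2 scale by limma's neqc with an offset of 16 (R 4.3.3, limma 3.58.1). The 13361 probes detected on at least 3 of 6 arrays were compared with lmFit and eBayes, without covariates, and p-values adjusted by Benjamini-Hochberg over all of them. Errors are standard errors with 3 mice per group. Background subtraction leaves folds of dim probes uncertain. Symbols come from the platform annotation, 12490 of 12495 updated through RefSeq (GRCm38.p6). Where a probe was undetected on all arrays of a group, the fold is a bound against the lowest detected signal. In data simulated for 13361 probes, 200 of them changed and noise independent between probes, the test found 61% of changes of 2-fold and 94% of 4-fold. In the real data 26.7% of probes passed, so these shares need not carry over. Smaller changes were not simulated. The genes and the 12 further lists were chosen with earlier results of these data known. Named were every gene of the symbol rule and, per list, up to 4 genes past the threshold with the largest difference, else the 2 with the lowest p. Alternatives covered background correction, scaling, filters, variance models, the deposited values and each mouse left out.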

Additional observations from a re-analysis of the deposited data

How the results depend on the processing

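Of the 39 ciliary probes, 4 were higher and 2 lower in mutants. The higher count was 1 with median scaling, 0 with the deposited values (limma, where the array of mutant mouse 1 is missing, and 3 had an unadjusted p under 0.05), 2 with no filter and 8 with array weights. The lower count was 1 without background correction, with the deposited values, with no filter and with a detection p below 0.01 on all 6 arrays. With a mouse left out, the higher count ranged from 0 to 4, the lower from 1 to 2, and the count over all probes from 1664 to 3067, against 3573. The causes were not tested, beyond fewer mice. Over all alternatives the median of the motile axoneme genes stayed between 0.09 and 0.29 and that of the transport genes between -0.07 and 0.05, so the transport median has no settled sign. The replicate numbers of the titles gave no sign of pairing: deviations of same-numbered mice correlated at -0.09, -0.01 and -0.04. With 3 mice per group these values cannot exclude pairing. With the number as a replicate block, 1 ciliary probe was higher and 2 were lower, and 2642 probes passed in all. Of the 580 values of single ciliary probes under the alternatives, 39 lost their call, 9 gained one, and no called value changed sign. Only probes called in the main fit could lose a call, so most of the 580 could not. Dnah8 kept its call under 15 of 15 alternatives, Dnah2 under 11 of 15 and Bbs9 under 8 of 15. Ift80 kept its call under 7 of 14, Bbs4 under 5 of 15 and Ccdc39 under 4 of 15. Signal close to background limits Bbs12, Foxj1, Bbs1 and Ift80.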
